A study of Caenorhabditis elegans with 4 samples.

Results

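Chromosome II carried 1018 of the 6494 regions, or 15.7%, that the study's combined list gives as bound by a tagged C34F6.9 protein in L2 larvae of the nematode Caenorhabditis elegans. The 1018 peaks are all those that the list places on II, in the coordinates of WormBase build WS220. Each was assigned by its midpoint to the left part (up to 5.0 Mb from the left end), the right part (beyond base 10200000) or the centre between them. The study made chromatin immunoprecipitation and sequencing (ChIP-seq) libraries from hermaphrodites of strain OP324, grown at 20 degrees Celsius to the second larval stage, which is called L2. The strain is an unc119(ed3) mutant that carries the transgene wgIs324, in which C34F6.9 is fused to a TY1, EGFP and FLAG tag and unc119 is supplied beside it. The transgene was brought in by particle bombardment and the strain was not outcrossed, so the fusion protein is expressed from added copies at a site that the labels do not give. The samples are 2 ChIP samples, collected with antibodies against GFP, and 2 input samples of total genomic DNA from the same strain and stage, for which no peak list was analysed here.

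In ChIP-seq, fragments of cross-linked chromatin that come down with the tagged protein are sequenced, and places where they pile up are called as peaks. A peak says that the protein was at or near that DNA in some of the cells of the whole larva, and it does not say in which cells or on which gene it acts. The autosomes of C. elegans have no single centromere. Their central parts recombine rarely and are rich in conserved and broadly expressed genes, while their arms recombine more and hold more repeats and more recently expanded gene families. The gene table at hand is of assembly WBcel235 and not of WS220, so it was used for no position, and peaks are named by where they lie. That table lists C34F6.9 as a protein-coding gene of chromosome X, so the peaks on II do not lie at the gene's own locus.

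Replicate 1 had 4404 peaks on II and replicate 2 had 3475, which is 14.8% and 14.9% of their lists. Read counts are not part of the lists and sequencing depth is unknown, so the intervals below cover counting error of peaks only. Neighbouring peaks are not independent, which makes the p-values below too small, and nothing in the labels ties the replicates to separate cultures, so their spread may be technical.

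The foremost regions of II by the authors' peak numbers lay in the centre and the right part. Peak number 1 of the whole combined list was at 10563315 to 10563740, just right of the centre, and it headed the list of each replicate. The midpoints of those replicate peaks lay 0.5 bp and -24 bp from the midpoint of the combined peak. Number 4 was in the centre at 8787317 to 8787757. Replicate 1 gave it number 3 and replicate 2 number 6. Both regions thus stood near the head of each replicate's list.

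The replicates placed some of the next regions apart and others close together. Number 13 (7151953 to 7152312) had number 24 in replicate 1 against 9 in replicate 2. Number 14 (12102326 to 12102748) had number 48 against 4. Number 18 (8561205 to 8561568) had number 13 against 32. These 3 regions ranked higher in one replicate than in the other, and all stayed within the first 50 peaks of both lists.

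In the centre followed number 19 (5844562 to 5845099), which stood at 18 in replicate 1 and at 22 in replicate 2, and number 31 (5373253 to 5373615), at 32 and 33. Between them came number 29 (6951341 to 6951762), at 14 and 61. Close and distant placings thus alternated, and lower in the order number 127 (6331380 to 6331779) stood at 128 and 136. Number 36 (14399523 to 14399920), which came next after number 31 and lay in the right part, stood at 31 in replicate 1 and at 43 in replicate 2. Over the first 20 regions of II that overlap a peak of both replicates, the combined numbers ran from 1 to 143. Their replicate 1 numbers ran from 1 to 231 with a median of 48.5, and their replicate 2 numbers from 1 to 212 with a median of 55.5. Of these 20 regions, 14 were in the centre, 6 in the right part and 0 in the left part. All 20 carry the highest score of each list, so the order among them rests on the number in the peak's name and not on a difference in score. That tie reaches much further: numbers 1 to 4754 of the combined list share the highest score, 760 of the 1018 peaks on II (74.7%) among them. The shares of the first 500 given below therefore rest on the number alone. Among the 1740 peaks beyond the tie, higher numbers went with lower scores over the whole range (Spearman rho -0.88). From one number to the next, however, the score rose in 1713 of 1739 steps, so a later number need not have a lower score.

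The left part entered the order later. Its first region was number 157 at 4851668 to 4851980, close to the bound with the centre. It stood at 91 in replicate 1 and at 305 in replicate 2. The next ones were near the left end, number 204 at 255213 to 255491 and number 209 at 155971 to 156253. They were followed by number 210 at 1320491 to 1320817 and number 278 at 285675 to 285996. These 5 regions were between 279 and 327 bp wide. Of the first 100 supported regions of II, 20 were in the left part, 42 in the centre and 38 in the right part.

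Combined peaks were densest in the centre and sparsest in the left part. The centre held 502 peaks in 5.2 Mb, or 96.5 per Mb (exact Poisson 95% interval 88.3 to 105). The right part held 322 peaks in 5.07 Mb, or 63.5 per Mb (56.7 to 70.8), and the left part held 194 peaks in 5.0 Mb, or 38.8 per Mb (33.5 to 44.7). The intervals of the 3 parts did not overlap. Peaks covered 3.71% of the centre, 2.34% of the right part and 1.499% of the left part.

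The centre was 1.88 times as dense as both arms, meaning the left and right parts pooled, with a 95% interval of 1.66 to 2.13 (p = 1.4e-23 by a two-sided exact binomial test against the share of length; Benjamini-Hochberg adjusted p = 8.5e-23 over 6 tests). The right part was 1.64 times as dense as the left, with an interval of 1.37 to 1.97 (p = 4.2e-08 by the same exact test, adjusted p = 8.4e-08). Both orders were also seen in each replicate taken alone: the ratio for the centre was 1.85 in the 6494 highest-scoring peaks of replicate 2 and 1.83 in those of replicate 1, and the ratio of right to left was 1.84 and 1.67. The bounds of the parts were set with earlier results of these data known.

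**Figure D1:**
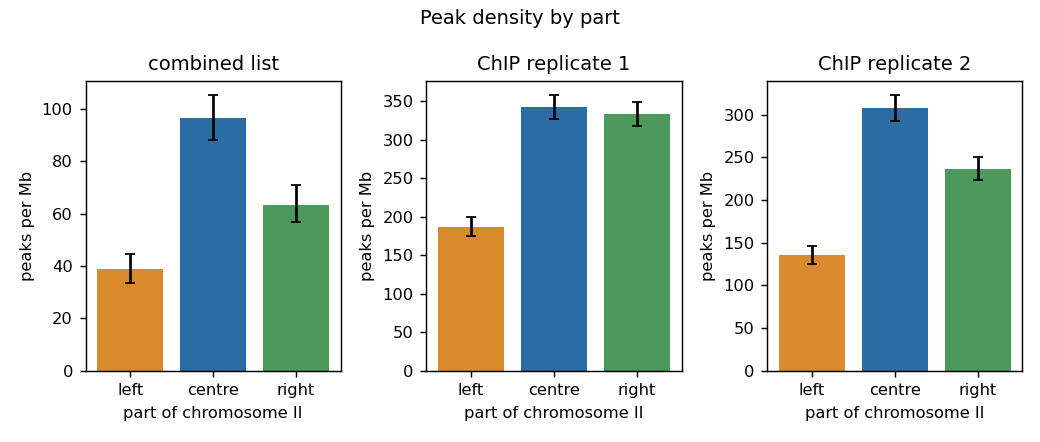
Peaks per Mb (vertical axis) in the left, centre and right parts of chromosome II for the combined list and each ChIP replicate; bars are densities and error bars exact Poisson 95% intervals. The centre is highest in the combined list at 96.5 per Mb, while in replicate 1 the right part, at 333 per Mb, comes close to the centre at 342.

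The full replicate lists, which reach to much lower scores, shared the sparse left part and differed over the right. In replicate 1 the left part had 187 peaks per Mb (175 to 200), the centre 342 (326 to 358) and the right part 333 (317 to 349). The intervals of centre and right overlapped there. In replicate 2 the left part had 135 peaks per Mb (125 to 146), the centre 308 (293 to 323) and the right part 236 (223 to 250). The right part therefore stood near the centre in one replicate and below it in the other, while the left part was the lowest in both.

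The combined list rose abruptly at the end of the left part. In intervals of 1 Mb counted from the left end, the first 5 held 42, 21, 38, 35 and 58 combined peaks. The next 5 held 111, 110, 93, 93 and 85. Intervals 11 and 12, at the start of the right part, kept 79 and 83 peaks, and intervals 13 to 15 held 42, 49 and 59. The count thus rose from 58 to 111 across the bound near 5 Mb, while on the right the fall came at about 12 Mb, inside the right part. In the full replicate lists the rise took 2 steps, the larger of them in replicate 1 before that bound: intervals 4 to 6 held 143, 280 and 349 peaks in replicate 1 and 114, 206 and 300 in replicate 2. Within the first 6494 ranks these intervals held 32, 58 and 108 peaks in replicate 1 and 37, 53 and 103 in replicate 2, with the larger step at the bound as in the combined list.

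Over the 15 whole intervals the combined counts ran from 21 to 111, a ratio of 5.29. In replicate 1 they ran from 143 to 368, a ratio of 2.57, and in replicate 2 from 87 to 337, a ratio of 3.87. The share of replicate 1 peaks that overlapped a combined peak was lowest in interval 13 at 15.5% and highest in interval 6 at 38.4%. In replicate 2 it was also lowest in interval 13, at 21.6%, among the whole intervals. Interval 13 had 317 peaks in replicate 1 and 227 in replicate 2, and both replicates had few high-ranked peaks there, 44 and 40 within their first 6494.

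**Figure D2:**
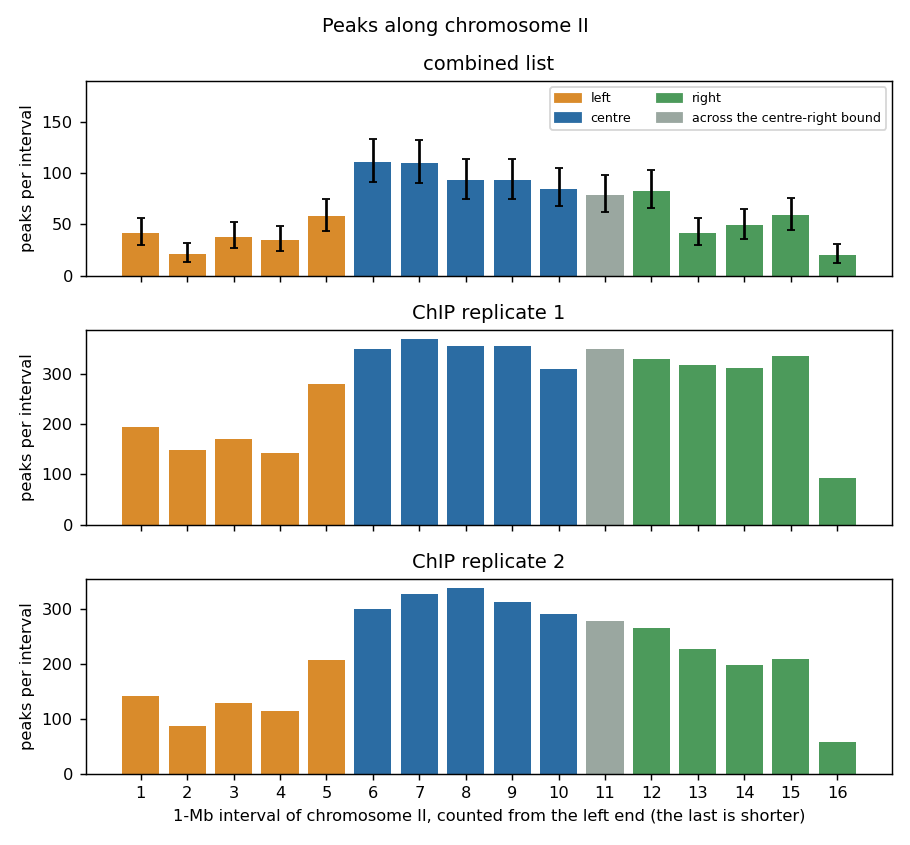
Number of peaks (vertical axis) in successive 1-Mb intervals of chromosome II, numbered from the left end, for the combined list and each ChIP replicate; bars are counts, the error bars on the combined list exact Poisson 95% intervals, and interval 16 is shorter. The combined count steps up from 58 in interval 5 to 111 in interval 6 and falls from 83 in interval 12 to 42 in interval 13, where replicate 1 still has 317.

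The excess in the centre varied with rank, and that of the right over the left stayed above 1 in every class of both replicates. Ranks followed the score, with ties in the order of the peak number; 3191 peaks of replicate 1 and 1783 of replicate 2 share the highest score. In replicate 1, taking classes of 3000 ranks, the centre was 1.60 times as dense as the arms for ranks 1 to 3000 and 2.05 times for ranks 3001 to 6000. The ratio was 1.23 for ranks 12001 to 15000 and 1.002 for ranks 24001 to 27000, and it was 0.75 (0.60 to 0.93) for the last class, ranks 27001 to 29725. In replicate 2 it was 1.74 in the first class, 2.06 in both the second and the third, and 1.27 (1.02 to 1.58) in the last. The ratio was thus highest below the first class in both replicates, and in replicate 1 the lowest-ranked peaks were sparser there than in the arms.

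The ratio of right to left stayed between 1.33 and 2.16 over the 10 classes of replicate 1, and between 1.60 and 1.96 over the 8 classes of replicate 2. In all 18 classes the lower bound of its interval was above 1. In the combined list, by peak number, the ratio of right to left was 2.19 (1.37 to 3.59) for numbers 1 to 1000, 2.04 (1.28 to 3.33) for numbers 1001 to 2000 and 1.84 (1.16 to 2.97) for numbers 2001 to 3000. It was 1.25 (0.81 to 1.93) for numbers 3001 to 4000 and 1.19 (0.71 to 2.02) for numbers 4001 to 5000, where the intervals include 1. It was 1.80 (1.06 to 3.14) for numbers 5001 to 6000 and 1.17 (0.57 to 2.43) for the last 494 numbers, so it did not fall steadily down the list.

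**Figure D3:**
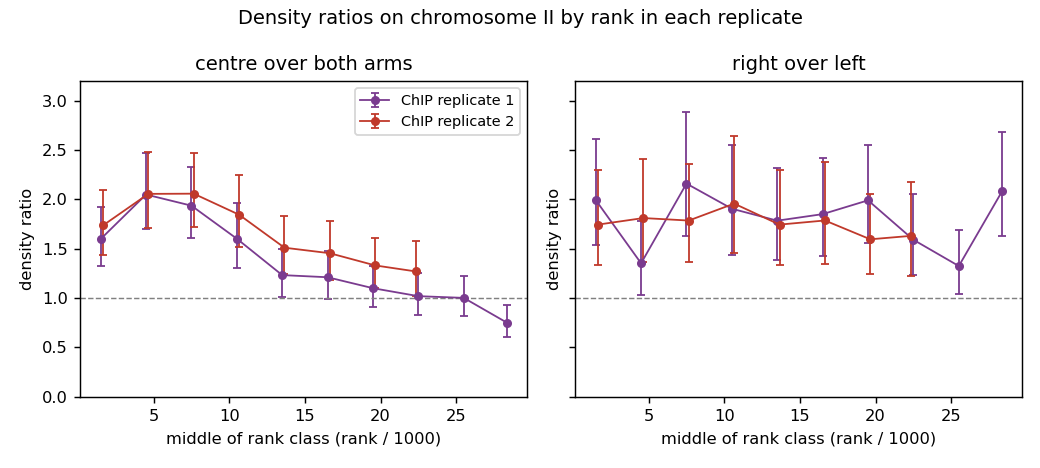
Ratio of peak densities on chromosome II (vertical axis), centre over both arms in one panel and right over left in the other, against the middle of each class of 3000 ranks; points are ratios, error bars exact binomial 95% intervals and the dashed line a ratio of 1. The ratio for the centre in replicate 1 rises from 1.60 in the first class to 2.05 in the next and then falls to 0.75. That of right over left stays above 1 in every class.

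The foremost peaks of the list were spread over the parts as follows. Of the 500 lowest peak numbers in the whole list, II had 66, of which 30 were in the centre, 26 in the right part and 10 in the left part. That is 5.77, 5.13 and 2.0 per Mb. As a share of each part's own peaks, 8.07% in the right part, 5.98% in the centre and 5.15% in the left part were among these 500, against 7.70% in the whole combined list; the shares were not tested against each other. The median peak number was 2788 in the right part, 3482 in the centre and 3435 in the left part. Peaks narrower than the fixed width of 456 bp, which stood earlier in the order (median number 1126), made up 36.0% of the right part (30.8 to 41.5%), 27.9% of the centre (24.0 to 32.0%) and 29.9% of the left part (23.5 to 36.9%). The intervals for these widths overlap between the parts.

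Set beside the rest of the autosomes, II differed in how far its outer peaks leaned to the right, while its density lay among theirs. It carried 66.7 combined peaks per Mb against 63.8 on the other 4 autosomes together, a ratio of 1.05 with an interval of 0.98 to 1.12 (p = 0.21 by an exact two-sided binomial test, adjusted p = 0.25). That pooled value covers unlike chromosomes, with 81.7 peaks per Mb on III, 80.4 on I, 58.3 on IV and 44.6 on V, so II stood below I and III and above IV and V. With every autosome divided into 3 pieces of equal length, the right piece of II held 323 peaks and the left piece 207, a ratio of 1.56 (1.31 to 1.87). On the other 4 autosomes the right pieces held 1133 peaks and the left pieces 1228. The share of outer peaks on the right was thus 60.9% on II and 48.0% elsewhere (odds ratio 1.69, Fisher's exact test, two-sided, p = 6.8e-08, adjusted p = 1e-07).

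Chromosome by chromosome, the right over left ratio was 1.14 (0.97 to 1.33) on III, 0.93 (0.80 to 1.09) on I, 0.82 (0.70 to 0.97) on IV and 0.78 (0.65 to 0.94) on V. Among the autosomes II had the highest ratio, and its interval was the only one lying above 1. Those of IV and V lay below 1, so their ends were uneven in the other direction, and the pooled share above covers unlike chromosomes. The centre over arms ratio of II over these pieces, 1.84, was nearly that of V, 1.84, and next to 1.73 on I. It was 1.58 on IV and 1.42 on III, and X, divided likewise, had 0.98 (0.87 to 1.11). Of the peaks of II, 6.48% were among the first 500, against 8.46% on the other autosomes, a difference that was not tested.

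Many peaks on II lay close to a neighbour. The median distance between a peak and the next was 4.95 kb in the centre, 6.60 kb in the right part and 13.1 kb in the left part. Of the 1017 distances, 160 (15.7%) were under 1 kb and 49 were 0, with the neighbours touching or overlapping. Under 1 kb were 10.9% of distances in the left part (6.86 to 16.2%), 17.5% in the centre (14.3 to 21.1%) and 15.9% in the right part (12.1 to 20.4%). Merging peaks less than 1 kb apart left 858 regions, of which 129 had more than 1 peak, and these 129 held 289 peaks, or 28.4% of those on II. On the other 4 autosomes 29.7% of peaks lay in such regions, and on X 29.2%, so II was near both. The share that density alone would give was not computed, so whether peaks group beyond it was not tested.

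Merged in this way, the centre still had 79.6 regions per Mb (72.1 to 87.7), the right part 53.4 (47.3 to 60.2) and the left part 34.6 (29.6 to 40.2). The order of the parts was therefore the same when a group of close peaks was counted once. The largest group on II had 5 peaks within 3790 bp, from 6825731 to 6829520 in the centre. Their combined numbers were 4907, 4739, 2903, 4897 and 4049, and each overlapped a peak of both replicates. The foremost of the 5 was thus number 2903.

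A group of 4 peaks in the right part, from 14249416 to 14251927, was of another kind. Its peaks were number 3047, 2470, 437 and 2110. The last 2 overlapped each other, ended at the same base, and had the same best-ranked partners, a replicate 1 peak of number 705 and a replicate 2 peak of number 288. Whether a further, lower-ranked replicate peak lay under such a pair was not examined. Peaks that overlap another of the same list were more common in the replicates, at 35.7% of replicate 1 peaks and 30.0% of replicate 2 peaks on II.

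Pairs of this kind recurred along II. Of the 1011 peaks with a partner in both replicates, 96 (9.50%), in 48 sets, shared both best partners with another combined peak. The 49 overlapping pairs held 98 of the 1018 peaks, which were 3.09% of the peaks in the left part, 9.96% of those in the centre and 13.0% of those in the right part. Over all of II 9.63% of peaks overlapped another, near the 8.98% on the other 4 autosomes and the 10.19% on X. For shared partners no count on other chromosomes is given here. The better-placed peak of a pair had a median number of 1281 and the other one 4398, and in 37 of the 49 pairs the other one stood in the lower 50% of the list. The differences between the parts in this share were not tested, and the merged counts above hold each such pair once.

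**Figure D4:**
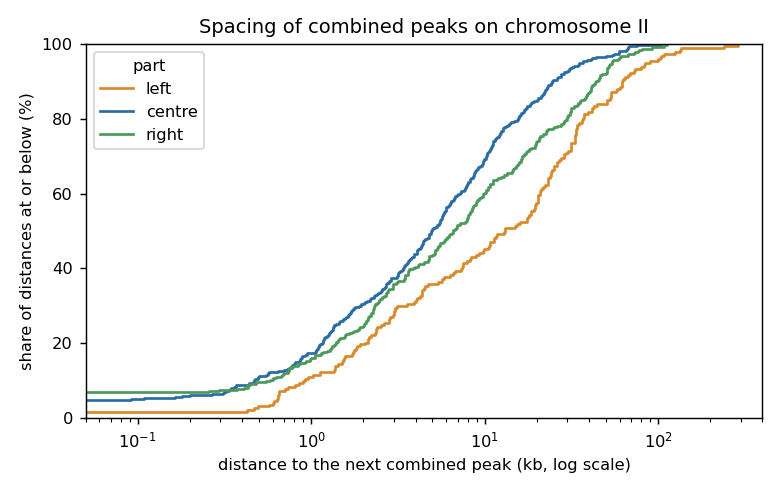
Cumulative share of distances (vertical axis, percent) against the distance from each combined peak to the next on chromosome II (horizontal axis, kb, log scale), by part. The curves are ordered centre, right, left over most of the range, with medians of 4.95, 6.60 and 13.1 kb, and that of the left part runs on to 288 kb where that of the right ends at 112 kb.

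The densest 100 kb of II lay in the centre, from 6820001 to 6920000, with 32 combined peaks (exact Poisson 95% interval 21.9 to 45.2), which merge to 18 regions. The 152 windows of that length cut in turn from the left end of II held a median of 6 peaks. Replicate 1 had 72 peaks in this window, 31 of them within its first 6494, and replicate 2 had 65, 30 of them within its first 6494. Of the 32 peaks, 31 overlapped a peak in both replicates. None of them was among the first 500 of the combined list: the best was number 1577 at 6853106 to 6853289, and their median number was 4788.

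The next windows were also in the centre. They were 5260001 to 5360000 with 21 peaks, 5870001 to 5970000 with 20, 7800001 to 7900000 with 20 and 9590001 to 9690000 with 19. Of these, the last alone held a peak of the first 500, number 123 at 9603332 to 9603714, which replicate 1 ranked 132 and replicate 2 ranked 120. The densest window of the right part, 10470001 to 10570000, held 17 peaks, 3 of the first 500 among them, including peak number 1 of the whole list. The densest of the left part, 4850001 to 4950000, held 15 peaks and ended just short of the centre. All of the peaks in these last 2 windows overlapped a peak in both replicates.

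The most crowded windows held a lower share of foremost peaks, within counting error. Among the 152 windows, the 7 with 15 peaks or more held 142 peaks, of which 6 (4.23%, exact 95% interval 1.57 to 8.97%) were among the first 500 and whose median number was 3990. In the 54 windows with 5 to 9 peaks, 25 of 359 peaks (6.96%, 4.56 to 10.1%) were among the first 500 and the median number was 2993. In windows with 1 to 4 peaks the share was 6.58% and the median number 3189.5, and in those with 10 to 14 peaks 6.98% and 3199.5. The share was thus lower in the most crowded class alone and did not fall steadily with crowding. The intervals overlap, and this comparison was not tested. Counted from the fullest, 39 of the 152 windows (25.7%) held 50% of the peaks of II. Across the 152 windows, the peak counts of both replicates went together (Spearman rho 0.86, Pearson r 0.89), a description over windows that share the chromosome's large-scale density.

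The longest stretches with no combined peak were in the left part. The longest, 288 kb from 1520296 to 1808175, would hold 19.2 combined peaks if those of II were evenly spaced. Replicate 1 had 14 peaks in it where even spacing would give 83.0, and replicate 2 had 11 where it would give 65.5. The best of them ranked 8741 in replicate 1 and 11898 in replicate 2, so 0 were within the first 6494 of either list.

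The stretches of 239 kb from 1820220 to 2058947 and of 136 kb from 2059404 to 2195508 followed directly. Over the 675 kb from the start of the first to the end of the third there were 3 combined peaks, where the mean density of II would give 45.0 and that of the left part alone 26.2. The 3 peaks were number 3689 (1808176 to 1808631), number 881 (1819992 to 1820219) and number 2738 (2058948 to 2059403). Number 881 had number 1004 in replicate 1 against 849 in replicate 2, so a region of fairly high rank in both replicates lay in this stretch. It was 11360 bp from number 3689, less than the left part's median distance of 13.1 kb. The replicates had 33 and 24 peaks there in place of 195 and 154 at the mean of II, and 11 of the 33 and 10 of the 24 overlapped a peak of the other replicate. Without this stretch, an alternative added after the gaps had been seen, the right part was 1.44 times as dense as the left (1.20 to 1.73, exact binomial test, adjusted p = 9.7e-05).

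The left part had 8 empty stretches of more than 100 kb, which made up 24.7% of its length, the right part had 3 (6.49%) and the centre 1 (2.01%). Those of the left part included 950802 to 1084856, where replicate 1 had 6 peaks and replicate 2 had 3, and 3683116 to 3808203. The longest of the right part, 14857312 to 14969329, was not empty in the replicates: replicate 1 had 48 peaks in it, above the 32.3 of even spacing, and replicate 2 had 25, close to 25.5. Of these, 0 in replicate 1 and 3 in replicate 2 were within the first 6494. The lack of combined peaks there went with low ranks and not with few peaks.

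The longest in the centre, 105 kb from 9787788 to 9892323, differed between the replicates. Replicate 1 had 0 peaks in it, where even spacing would give 30.1, and replicate 2 had 7 where it would give 23.8, one of them at rank 2699. It was the third longest stretch of II with no replicate 1 peak. The input samples were not used here, so whether these stretches differ in input was not tested.

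Nearly all combined peaks of II had a counterpart in each replicate, as did those of the whole list. Of the 1018 peaks, 1011 overlapped a peak of each replicate by 1 bp or more (99.3%, with an exact 95% interval of 98.6 to 99.7%), against 99.4% over the whole list. At a reciprocal overlap of 50%, 853 (83.8%, 81.4 to 86.0%) were matched in both, against 83.7% over the whole list. By part these shares were 85.6% on the left, 83.3% in the centre and 83.5% on the right. The combined list comes from these replicates themselves, so the overlap is no independent evidence of binding.

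Midpoints agreed closely: the median distance between the midpoints of the partners in the 2 replicates was 28.5 bp, and 87.3% of the 1011 peaks had partners within 100 bp of each other. Both partners ranked within the first 6494 of their lists for 807 peaks (79.8%, 77.2 to 82.3%). For 13 peaks both partners ranked beyond 6494. The ranks of the partners had a Spearman rho of 0.59 over the 1011 peaks, and of 0.60 on the left, 0.55 in the centre and 0.62 on the right. Such ranks follow the score and can depart from the peak numbers quoted above. For combined number 1577, the replicate 2 partner had number 1877 and rank 4922. The partner of combined number 2903 had number 2811 and rank 4368, and that of number 4907 had number 4458 and rank 2261. In these examples the order by score ran against the order by number. The rho values therefore depend on the ordering used, were not computed on peak numbers, and are no plain measure of agreement between the replicates. These values describe peaks of shared libraries that were chosen for being in the combined list. For partner ranks and midpoint distances no values on other chromosomes are given here, so they do not set II apart.

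**Figure D5:**
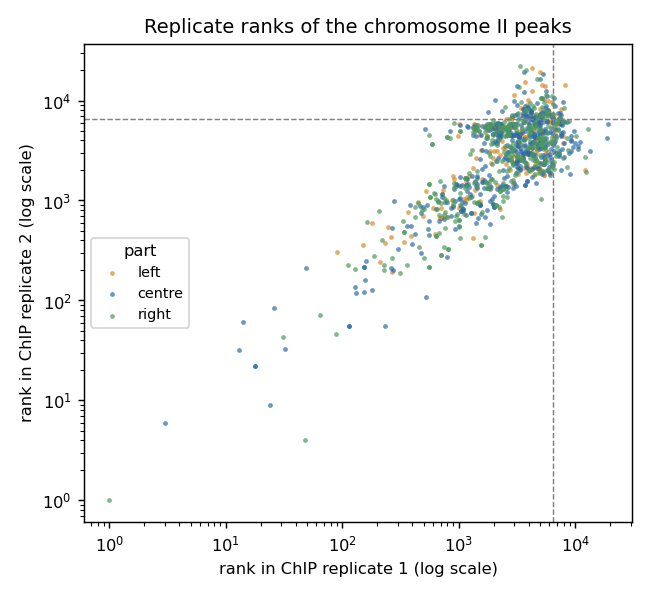
Rank of the best overlapping peak in replicate 2 (vertical axis, log scale) against that in replicate 1 (horizontal axis, log scale) for the 1011 chromosome II peaks found in both, coloured by part; dashed lines mark rank 6494. Most points, 807, lie below both lines, and the spread widens toward low ranks.

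The 7 combined peaks of II without a counterpart were 4 that replicate 1 lacked and 3 that replicate 2 lacked. The foremost was number 627 at 11675945 to 11676243 in the right part, which was number 442 in replicate 2 while the nearest replicate 1 peak was 11718 bp away. Number 2450 (5633406 to 5633861) and number 3444 (2834119 to 2834574) were also absent from replicate 1, and number 2538 and number 3656 in replicate 2. Number 5758 (6544924 to 6545379) was the last that replicate 1 lacked. Replicate 2 lacked number 5117 (555370 to 555825), number 5567 (5342353 to 5342808) and number 5721 (6823161 to 6823616). Number 5721 lay at the edge of the densest window, with a replicate 2 peak 191 bp away. With depth unknown, a region missing from a replicate's list was not counted as unbound there.

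How often a peak of one replicate recurred in the other varied along II in the full list of replicate 1. Of its 4404 peaks on II, 60.01% overlapped a replicate 2 peak, against 58.6% over its whole list. The share was 68.4% in the centre (1217 of 1779, 66.2 to 70.6%) and 54.3% in the arms (1426 of 2625, 52.4 to 56.2%), an odds ratio of 1.82 (Fisher's exact test, two-sided, p = 5.9e-21, adjusted p = 1.8e-20). Replicate 2 peaks covered 12.7% of the centre, 9.83% of the right part and 5.71% of the left part, and the part of this coverage in the difference was not tested. When the first 6494 peaks of each list were compared with each other, the odds ratio was 0.89 (Fisher's exact test, p = 0.47, adjusted p = 0.47), so the higher share in the centre was lost and its direction turned.

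In the opposite direction the difference did not pass the test. Of the 3475 replicate 2 peaks on II, 72.5% overlapped a replicate 1 peak, against 71.8% over the whole list. The share was 73.4% in the centre (71.2 to 75.6%) and 71.7% in the arms (69.6 to 73.8%), an odds ratio of 1.09 (Fisher's exact test, two-sided, p = 0.27, adjusted p = 0.27). The pooled arms covered unlike parts, with 66.3% on the left (62.6 to 69.8%) and 74.8% on the right (72.3 to 77.2%). The left and right shares were not tested against each other. Within the first 6494 ranks recurrence in the full list of the other replicate was near complete in every part, from 97.8% to 97.9% in replicate 1 and from 97.2% to 97.9% in replicate 2. Beyond that rank it was 38.9% on the left, 57.2% in the centre and 46.1% on the right for replicate 1, and 54.9%, 62.7% and 65.8% for replicate 2. In replicate 2 the intervals of the centre (59.8 to 65.6%) and the right part (62.5 to 68.9%) overlap, and these shares were not tested against each other. In both replicates the left part had the lowest share of recurrent low-ranked peaks.

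Many regions of II were found in both replicates and left out of the combined list. Counting each replicate peak once, 1183 overlapping pairs had no combined peak, 98.1 per Mb in the centre (89.7 to 107), 92.5 in the right part (84.3 to 101) and 40.8 in the left part (35.4 to 46.8). Here centre and right were alike within their intervals, unlike in the combined list, and the left part was again the sparsest. These pairs ranked low, with a median of 13974 in replicate 1 and 12696 in replicate 2, and 7 of them were within the first 6494 of both lists. No such count is given here for the other chromosomes, so the pairs do not set II apart from them.

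The pair with the best mean rank was in the right part, at 10350367 to 10350816 in replicate 1 and 10350351 to 10350810 in replicate 2, with ranks 2880 and 3367. The next was in the centre, at 7131861 to 7132310 in replicate 1, with ranks 2918 and 3355. The one after that, at 11595484 to 11595933 in replicate 1, had ranks 2905 and 3386, and the other two of the best 5 were in the centre at 8973617 to 8974066 and at 8819806 to 8820255. The rule by which regions entered the combined list is not given in the sources used here.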

How the data were processed

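The data are the peak list of each of 2 ChIP replicates and 1 combined list; the 2 input samples were not used here. All 3 are GFF version 3 files on WormBase WS220, per the file headers, and their source column names the SPP peak caller and IDR, which ranks peaks by reproducibility between replicates. The deposited score of each peak is the authors', with no stated scale, and serves only to rank peaks within a list, ties following the peak number. The deposited start and end of each peak are counted from 1. The sources used here do not give the aligner, versions, thresholds, depth or way of combining.

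The length of II, 15.27 Mb, and of each other chromosome was taken from the last base of any peak. The parts of II were bounded at 5.0 and 10.2 Mb. Exact binomial and Fisher tests (two-sided, threshold 0.05 after Benjamini-Hochberg adjustment over 6 tests), exact Poisson intervals for densities, Clopper-Pearson intervals for shares and a 1 bp overlap were used. A combined peak's partner was its best-ranked overlapping replicate peak. The functions were tested on simulated lists. Alternatives covered rank, merging under 1 kb, overlap rule, bounds, windows and each replicate alone. Regions named followed a rule: the 20 lowest-numbered supported peaks of II and the first 5 of each part, the densest 100 kb windows (steps of 10 kb), the longest gaps, peaks missing from a replicate, and the best pairs outside the combined list; group members and the peaks inside the sparse stretch were chosen after their values were seen. Parts, members and tests were chosen with earlier results of these data known. Tests ran in scipy 1.17.1 with pandas 2.3.3 and numpy 2.4.6 under Python 3.11.15, and figures were drawn in matplotlib 3.10.9.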

Additional observations from a re-analysis of the deposited data

How the results depend on the processing

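Of 50 alternative values, 46 had the direction and the test outcome of the reported value, or, for values without a test, moved by less than the limit set for them; for 2 of the 6 tests that outcome was not passing. The ratio of centre to arms ran from 1.31, in the full list of replicate 1, to 1.93, with the middle 50% of the length as centre. The ratio of right to left ran from 1.44 to 2.02, and the odds ratio of outer peaks on the right, II against the other autosomes, from 1.59 to 2.03. Leaving out the densest window could not change the ratio of right to left, since that window lies in the centre, yet it counts among the 46. The density of II against the other autosomes, which passed no test, ran from 0.99, below 1 in the 50% of the list with the lower numbers, to 1.06. The higher recurrence of replicate 1 peaks in the centre was lost, with an odds ratio of 0.89 (exact p = 0.47), when the 6494 highest-scoring peaks of each list were compared. The same comparison of replicate 2 peaks, not past the threshold either way, turned from 1.09 to 0.79 (exact p = 0.15). Fewer peaks are compared there, and the cause was not tested. At 50% reciprocal overlap the share of peaks on II matched in both replicates was 83.79%. Leaving out a replicate replaced the combined list by the other replicate's first 6494 peaks, since the combined list was not remade. No paired analysis was possible because the 3 lists at hand are all of ChIP samples, which leaves no input value to set beside a ChIP replicate.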
